A study of Mus musculus with 13 samples.

Results

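Transforming growth factor beta (TGF-beta) signalling was followed in P14 CD8+ T cells through 9 genes, the ligands Tgfb1 and Tgfb3, the receptors Tgfbr1, Tgfbr2 and Tgfbr3, the signal transducers Smad2 and Smad3, and the inhibitors Smad7 and Skil. They were chosen by name from the pathway, with earlier results of these data known. All probe sets that the array's annotation assigns to these symbols were taken. The 9 genes are part of 18193 measured genes and have 20 of 45037 probe sets. Tgfb3 is measured by a single probe set, Tgfb1, Tgfbr3, Smad2, Smad7 and Skil by 2 each, and Tgfbr1, Tgfbr2 and Smad3 by 3 each. Unless another probe set is named, values are from the gene's brightest probe set over all arrays. They are log2 probe set intensities, in which a difference of 1 is a doubling. Of the 20 probe sets, 14 lay above a mean log2 intensity of 4.72, the level below which the dimmest 40% of probe sets with a gene fall, and 6 lay below it.

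TGF-beta is released in a latent form and, once active, binds the type II receptor Tgfbr2, which recruits and phosphorylates the type I receptor Tgfbr1. Tgfbr1 phosphorylates Smad2 and Smad3, which join Smad4 and regulate genes in the nucleus. Smad7 blocks Tgfbr1 and is itself induced by the pathway, and Skil (SnoN) holds Smad complexes in a repressed state. In CD8+ T cells the pathway is known to restrain proliferation and cytotoxic genes and to raise Itgae, the integrin chain CD103.

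The cells came from C57Bl/6 mice that carry the P14 T cell receptor transgene, through which most CD8+ T cells recognise the same viral peptide. Wild-type mice were compared with Batf-/- mice, which lack the AP-1 family transcription factor Batf in every cell type and not in T cells alone. The 4 groups were naive wild-type cells (2 arrays), naive Batf-/- cells (3 arrays), and cells of each genotype after stimulation for 3 days on plate-bound anti-CD3 and anti-CD28 with IL-2 at 100 U/ml (4 arrays each). The medium contained fetal bovine serum, and the labels name no TGF-beta among the additions. The labels give neither the age of the mice nor whether each array stands for a separate animal or culture, so p-values measure the spread between arrays.

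Batf was low on all 7 Batf-/- arrays, at 5.56 to 6.77, against 8.63 to 9.36 on the 6 wild-type arrays. The mean of 6 measured CD8+ T cell markers lay between 11.65 and 12.24 on all 13 arrays. The marker means of 8 of 9 other cell types (NK cells, B cells, neutrophils, monocytes, dendritic cells, platelets, stroma and erythroid cells) were higher on naive than on day 3 arrays in both genotypes. That of 5 CD4 and regulatory T cell markers went the other way, with 5.25 to 5.45 on naive and 6.63 to 6.69 on day 3 arrays. In wild-type cells Il2ra rose by 5.36 and Ikzf2 by 0.92, while Foxp3, Cd4 and Cd40lg differed by 0.28, 0.08 and 0.02. In Batf-/- cells the differences were 5.18, 0.53, 0.58, 0.21 and 0.09 in the same order, so the mean mostly follows Il2ra. The mean of 5 NK cell markers was 6.51 to 6.70 in naive wild-type, 7.36 to 8.22 in naive Batf-/- and 4.48 to 4.77 on day 3 arrays. The mean of 8 B cell markers was 6.08 to 7.25 on naive and 4.76 to 4.98 on day 3 arrays, and that of 6 platelet markers 6.90 to 7.65 and 5.07 to 5.28. Naive Batf-/- replicate 1 stood apart, with a mean of 9.41 over 7 neutrophil markers, against 5.22 to 6.42 on the other 4 naive arrays and 4.18 to 4.31 at day 3, and with the lowest CD8+ T cell marker mean, 11.65. At day 3, 6 of the 7 neutrophil markers were below 4.72 in both genotypes. The part of these other cells in the differences below was not tested, and in bulk RNA fewer cells of a type and less RNA per cell cannot be told apart. Results that rest on naive Batf-/- replicate 1 are given with and without it.

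**Figure D1:**
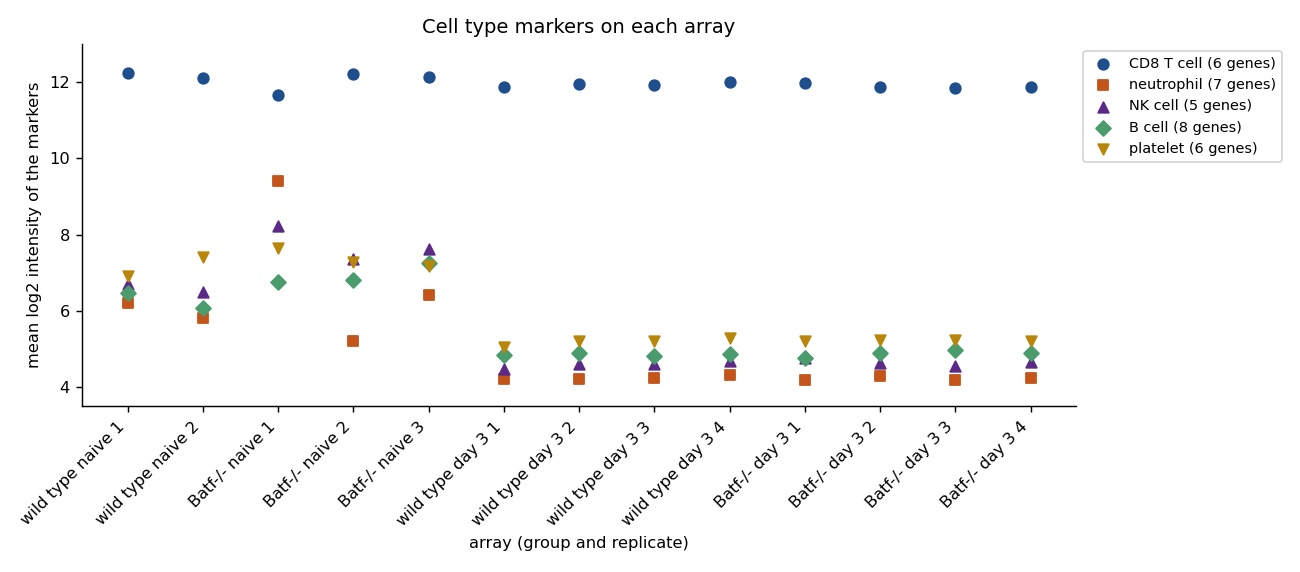
Mean log2 intensity (vertical axis) of the markers of 5 cell types on each of the 13 arrays (horizontal axis, group and replicate), each point standing for the mean over the genes given in the legend. Markers of neutrophils, NK cells, B cells and platelets lie higher on the naive than on the day 3 arrays, and the neutrophil markers reach 9.41 on naive Batf-/- replicate 1.

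The RefSeq promoter windows of 4 of the 9 members were at hand, Tgfb1, Tgfbr1, Tgfbr2 and Smad3. They are shown because the other 5 members had none, and for Tgfbr1, which had 2 windows, 1 is shown. They belong to a gene that rose after stimulation, a pair of receptors that fell, and a gene with no called change. Each window runs 5′ to 3′ from 250 bases before to 50 bases after the transcription start in assembly GRCm38.p6, so that the last 50 bases are the start of the first exon. They lie at chr7:25686752-25687051 (Tgfb1, + strand), chr4:47352972-47353271 (Tgfbr1, + strand), chr9:116175314-116175613 (Tgfbr2, - strand) and chr9:63757945-63758244 (Smad3, - strand). Capitals mark GC boxes (GGGCGG, or CCGCCC on the other strand), which Sp1 family proteins bind, and the Smad box (CAGAC, or GTCTG on the other strand).
Tgfb1: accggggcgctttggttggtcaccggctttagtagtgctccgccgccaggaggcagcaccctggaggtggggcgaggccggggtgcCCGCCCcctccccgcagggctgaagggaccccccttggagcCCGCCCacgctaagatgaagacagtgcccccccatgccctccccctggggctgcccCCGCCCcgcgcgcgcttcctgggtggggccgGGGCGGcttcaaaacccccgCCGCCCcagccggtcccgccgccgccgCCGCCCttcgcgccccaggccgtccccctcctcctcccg
Tgfbr1: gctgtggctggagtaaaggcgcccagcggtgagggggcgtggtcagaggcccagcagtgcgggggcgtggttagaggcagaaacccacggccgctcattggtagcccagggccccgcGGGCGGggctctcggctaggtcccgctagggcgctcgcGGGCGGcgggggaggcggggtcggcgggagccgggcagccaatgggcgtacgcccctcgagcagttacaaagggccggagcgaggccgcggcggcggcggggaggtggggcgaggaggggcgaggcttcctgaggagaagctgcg
Tgfbr2: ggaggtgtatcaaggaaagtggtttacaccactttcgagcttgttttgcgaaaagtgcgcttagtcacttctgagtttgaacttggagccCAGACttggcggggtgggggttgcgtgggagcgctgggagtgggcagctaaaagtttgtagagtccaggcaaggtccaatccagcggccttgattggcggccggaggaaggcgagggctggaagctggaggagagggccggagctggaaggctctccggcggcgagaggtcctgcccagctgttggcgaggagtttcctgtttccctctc
Smad3: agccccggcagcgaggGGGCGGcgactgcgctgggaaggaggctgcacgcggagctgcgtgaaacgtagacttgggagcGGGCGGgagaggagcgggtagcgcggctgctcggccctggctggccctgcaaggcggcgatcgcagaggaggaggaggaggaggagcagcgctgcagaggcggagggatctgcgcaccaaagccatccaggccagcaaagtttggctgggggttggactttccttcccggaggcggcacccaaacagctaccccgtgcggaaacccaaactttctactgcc
GC boxes were found 6 times in Tgfb1, 2 times in Tgfbr1 and 2 times in Smad3. Tgfbr2 held none and had a single Smad box, whose first base is at -160 from the start. GC content was 77.0%, 74.7% and 67.7% for Tgfb1, Tgfbr1 and Smad3 and 59.0% for Tgfbr2. None of the 4 windows held the AP-1 site TGANTCA, either form of the composite Batf-Irf site that contains it (spaced or adjacent), the palindrome GTCTAGAC or the TATA box TATAAA on either strand. Of 32817 windows of the same length, 35.6% held a GC box, 49.6% a Smad box, 7.81% the AP-1 site, 0.119% the spaced and 0.125% the adjacent composite site, 0.213% the palindrome and 13.6% the TATA box, and the median GC content was 52.7%. A match describes the letters of a window and is not evidence of binding.

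Of the 9 members, 2 rose and 6 fell between the naive state and day 3 in wild-type cells, and 2 rose and 6 fell in Batf-/- cells, at an adjusted p below 0.05 (Benjamini-Hochberg over all genes, as throughout). In each genotype the ligands Tgfb1 and Tgfb3 were higher, and the 3 receptors, Smad2, Smad7 and Skil were lower. Smad3 passed in neither genotype. Of all genes, 45.4% passed in wild-type cells (22.4% higher, 23.0% lower) and 47.0% in Batf-/- cells (23.8% higher, 23.2% lower), so that passing by itself was common. All 9 members have a brightest probe set above the dim level. In a fit without the dimmest 40% of probe sets, 64.7% of 11786 genes passed in wild-type and 65.8% in Batf-/- cells. The median difference of the members was -0.49 in wild-type and -0.28 in Batf-/- cells, against 0.05 over all genes in both. The naive and day 3 arrays did not overlap for 8 of 9 members in each genotype, where this held for 58.3% and 48.2% of all genes. Over the 20 probe sets of the members, 3 rose and 7 fell in wild-type cells, against 38.6% of all probe sets that passed, and 4 rose and 7 fell in Batf-/- cells, against 38.3%.

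**Figure D2:**
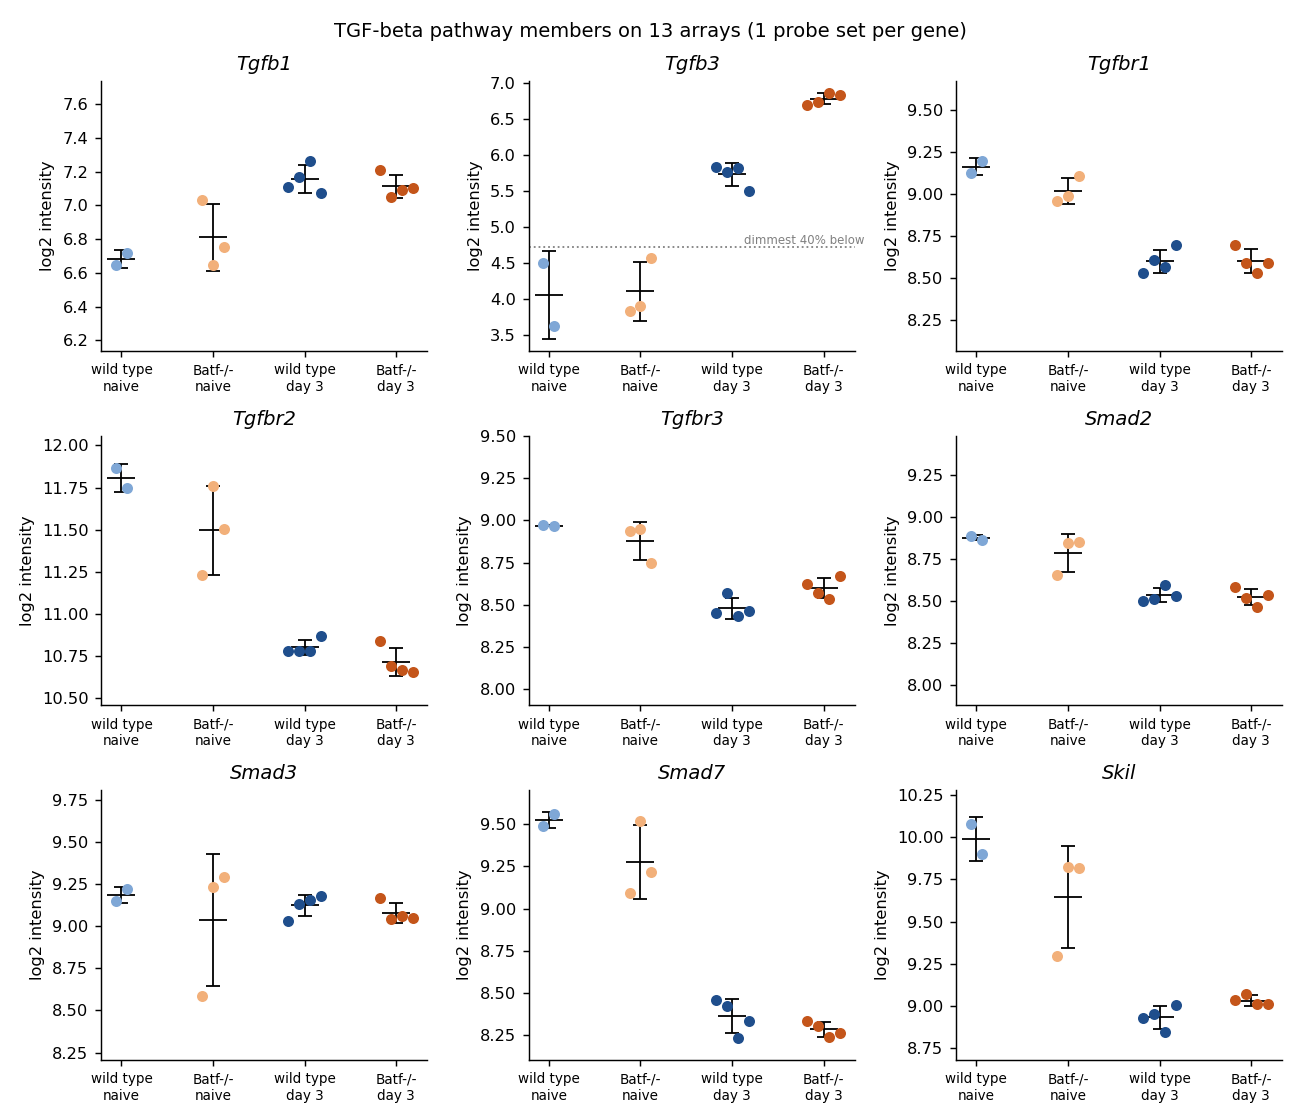
Log2 intensity (vertical axes) of the 9 members on each array by group (horizontal axes), with the group mean and SD (2, 3, 4 and 4 arrays) as horizontal bar and whiskers, and each panel on an axis of its own. Tgfb3 separates all 3 levels, with naive arrays at 3.63 to 4.57, wild-type day 3 arrays at 5.50 to 5.84 and Batf-/- day 3 arrays at 6.70 to 6.86.

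Tgfb3, a TGF-beta that is needed for palate closure and is made by pathogenic Th17 cells, changed most among the members. It stood at 4.50 and 3.63 on the naive wild-type arrays and at 3.84, 3.91 and 4.57 on the naive Batf-/- arrays. At day 3 it reached 5.84, 5.77, 5.83 and 5.50 in wild-type cells and 6.70, 6.75, 6.86 and 6.83 in Batf-/- cells. Every day 3 array was above every naive array, and every Batf-/- day 3 array was above every wild-type day 3 array, while the naive genotypes overlapped. The rise was 1.67 ± 0.22 (SE, n = 4 and 2, adjusted p = 3.2e-05) in wild-type and 2.68 ± 0.20 (n = 4 and 3, adjusted p = 1.3e-07) in Batf-/- cells, or 3.18-fold and 6.39-fold. Both naive means, 4.06 ± 0.61 and 4.11 ± 0.40 (SD), lie among the dimmest 40% of probe sets, so the RNA may have changed by more than these intensity ratios. The 2 naive wild-type arrays lie apart, and the wild-type rise was 1.24 without replicate 2 and 2.10 without replicate 1.

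Tgfb1, the main TGF-beta of the immune system, rose less. It was 6.65 and 6.72 in naive wild-type cells, and 7.03, 6.65 and 6.76 in naive Batf-/- cells. Stimulated cells had 7.11, 7.17, 7.26 and 7.08 in wild-type and 7.21, 7.05, 7.09 and 7.10 in Batf-/- cells. All day 3 arrays were above all naive arrays, and naive Batf-/- replicate 1 was the naive array nearest to them. The rise was 0.47 ± 0.10 (1.39-fold, n = 4 and 2, adjusted p = 0.00132) in wild-type and 0.30 ± 0.09 (1.23-fold, n = 4 and 3, adjusted p = 0.0109) in Batf-/- cells. Without naive Batf-/- replicate 1 the latter was 0.41 (adjusted p = 0.000367), and without replicate 2 it was 0.22 and did not pass (adjusted p = 0.0602). The second Tgfb1 probe set, 1445360_at, did not rise, with differences of -0.15 (adjusted p = 0.277) and -0.23 (adjusted p = 0.0546). The rise of Tgfb1 thus rests on 1 of its 2 probe sets, and with the mean of both it did not pass in either genotype (0.16, adjusted p = 0.151, and 0.03, adjusted p = 0.738).

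The signalling receptors Tgfbr2 and Tgfbr1 both fell. Tgfbr2 was 11.86 and 11.75 in naive wild-type and 11.23, 11.76 and 11.50 in naive Batf-/- cells. On day 3 the values were 10.78, 10.78, 10.78 and 10.87 in wild-type and 10.84, 10.69, 10.67 and 10.66 in Batf-/- cells. Naive and day 3 arrays did not overlap, and the day 3 genotypes did. Tgfbr2 fell by 1.0 ± 0.11 (2.01-fold, n = 4 and 2, adjusted p = 7.4e-06) in wild-type and by 0.78 ± 0.10 (1.72-fold, n = 4 and 3, adjusted p = 2.2e-05) in Batf-/- cells. A second Tgfbr2 probe set above the dim level, 1425444_a_at, went the other way without passing, with differences of 0.38 (adjusted p = 0.0575) and 0.26 (adjusted p = 0.136), and the third, 1422019_at, was dim. With the mean of the 3 probe sets the fall shrank to -0.22 (adjusted p = 0.029) and -0.14 (adjusted p = 0.116).

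Tgfbr1, the kinase that phosphorylates Smad2 and Smad3, was 9.13 and 9.20 in naive wild-type and 8.96, 8.99 and 9.10 in naive Batf-/- cells. It was 8.53 to 8.69 on the 4 wild-type and 8.53 to 8.70 on the 4 Batf-/- arrays at day 3. The day 3 genotypes overlapped throughout and lay below all naive arrays. It fell by 0.56 ± 0.07 (1.48-fold, adjusted p = 2.5e-05) and by 0.42 ± 0.06 (1.33-fold, adjusted p = 0.000115), and its other 2 probe sets were dim. The coreceptor Tgfbr3, betaglycan, which presents ligand to Tgfbr2, was 8.97 on both naive wild-type arrays and 8.94, 8.95 and 8.75 in naive Batf-/- cells. At day 3 it lay between 8.43 and 8.57 in wild-type and between 8.53 and 8.67 in Batf-/- cells, ranges that overlap. It fell by 0.49 ± 0.07 (1.41-fold, adjusted p = 9.6e-05) and by 0.28 ± 0.07 (1.21-fold, adjusted p = 0.00308), and its other probe set was dim.

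Of the receptor-activated Smads, Smad2 fell and Smad3 did not pass. Smad2 was 8.88 and 8.86 in naive wild-type and 8.65, 8.85 and 8.85 in naive Batf-/- cells, and lay between 8.47 and 8.59 on the 8 day 3 arrays. It fell by 0.34 ± 0.07 (1.27-fold, adjusted p = 0.00122) and by 0.26 ± 0.06 (1.20-fold, adjusted p = 0.00359). Its second probe set, 1442062_at, rose, by 0.35 ± 0.13 (adjusted p = 0.0421) and 0.39 ± 0.11 (adjusted p = 0.013), so the probe sets of Smad2 disagree in direction, and with their mean neither genotype passed (0.01, adjusted p = 0.954, and 0.07, adjusted p = 0.459). Smad3 was 9.15 and 9.22 in naive wild-type cells, 8.58, 9.23 and 9.29 in naive Batf-/- cells, 9.03 to 9.18 in wild-type and 9.04 to 9.17 in Batf-/- cells at day 3. Only naive Batf-/- replicate 1, the array with high neutrophil markers, lay outside 9.03 to 9.29. The differences were -0.06 ± 0.15 (adjusted p = 0.781) in wild-type and 0.04 ± 0.13 (adjusted p = 0.815) in Batf-/- cells. Without that array the Batf-/- difference was -0.18 and passed (adjusted p = 0.0342). A second Smad3 probe set, 1450472_s_at, which was dim in the naive groups, was higher at day 3 by 0.21 (adjusted p = 0.0828) and 0.23 (adjusted p = 0.0335, passed).

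Both inhibitors fell in both genotypes. Smad7 was 9.49 and 9.56 in naive wild-type cells and 9.09, 9.52 and 9.22 in naive Batf-/- cells. After stimulation it was 8.46, 8.42, 8.23 and 8.33 in wild-type and 8.33, 8.30, 8.24 and 8.26 in Batf-/- cells. All naive arrays were above all day 3 arrays, and the day 3 genotypes overlapped. Smad7 fell by 1.16 ± 0.10 (2.24-fold, adjusted p = 8.1e-07) and by 0.99 ± 0.09 (1.99-fold, adjusted p = 1.0e-06). Its second probe set, 1443771_x_at, fell alike, by 1.25 ± 0.10 and 0.94 ± 0.09, which made Smad7 the only member with 2 probe sets that both passed in the same direction in both genotypes.

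Skil was 10.08 and 9.90 in naive wild-type cells and 9.29, 9.82 and 9.82 in naive Batf-/- cells. The day 3 values were 8.93, 8.95, 8.84 and 9.01 in wild-type and 9.03, 9.07, 9.01 and 9.01 in Batf-/- cells. Naive and day 3 arrays did not overlap, and naive Batf-/- replicate 1 was the lowest naive array. Skil fell by 1.06 ± 0.12 (2.08-fold, adjusted p = 1.0e-05) in wild-type and by 0.61 ± 0.11 (1.53-fold, adjusted p = 0.0004) in Batf-/- cells, the latter by 0.79 without replicate 1. The second Skil probe set, 1422054_a_at, passed in neither genotype (-0.20, adjusted p = 0.235, and -0.04, adjusted p = 0.808).

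**Figure D3:**
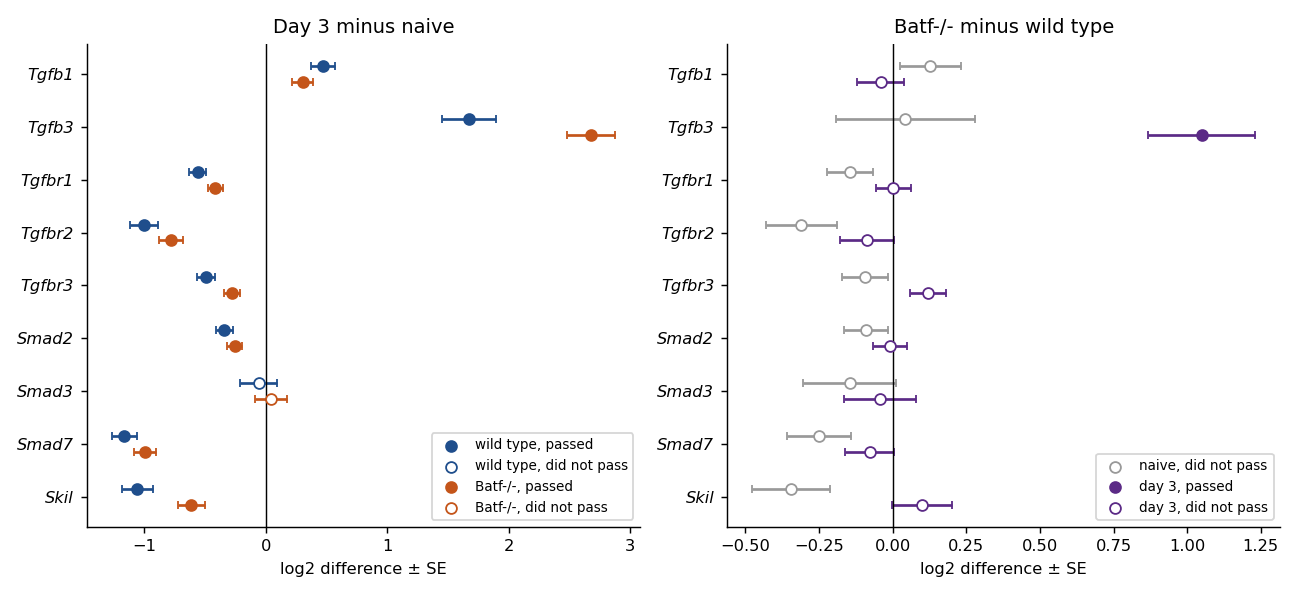
Log2 differences with their standard error (horizontal axes) for the 9 members, day 3 minus naive in each genotype (left) and Batf-/- minus wild type in each state (right), with filled points for an adjusted p below 0.05. On the right Tgfb3 at day 3, at 1.05, is the filled point, and the other 17 are open.

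The genotypes were compared at day 3 to learn how loss of Batf alters effector CD8+ T cells. Of the 9 members, 1 was higher in Batf-/- cells, 0 were lower and 8 did not pass, where 1.37% of all genes passed (0.665% higher, 0.709% lower). In the fit without the dimmest 40% of probe sets, 3.18% of genes passed. The member that passed was Tgfb3, which was higher by 1.05 ± 0.18 (2.07-fold, 95% interval 0.66 to 1.44, n = 4 and 4, adjusted p = 0.0117). Both means, 6.78 ± 0.07 and 5.74 ± 0.16 (SD), were above the dim level. The difference passed under all 21 other settings and arrays left out, at 0.97 to 1.08 with adjusted p between 0.000143 and 0.0479. The other members differed by -0.09 (Tgfbr2) to 0.12 (Tgfbr3), with 95% intervals that lay within -0.31 and 0.32 and adjusted p of 0.46 or more. The median difference of the 9 members was -0.0083, against 0.0143 over all genes. The groups did not overlap for 2 of 9 members, Tgfb3 and Skil, against 12.8% of all genes. For Skil this rests on a narrow gap, since the highest wild-type and the lowest Batf-/- array both round to 9.01, and its difference was 0.10 (adjusted p = 0.786). In the fit of all probe sets, 1 of the 20 probe sets of members passed at day 3, that of Tgfb3, against 0.773% of all probe sets, and 0 of 20 passed in naive cells, against 0.739%.

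In naive cells 0 of 9 members passed, where 1.08% of all genes did (0.813% higher, 0.264% lower), and 3 of 9 had an unadjusted p below 0.05, as had 13.6% of all genes. These were Skil at -0.35 (95% interval -0.63 to -0.06, adjusted p = 0.261), Tgfbr2 at -0.31 (-0.57 to -0.05, adjusted p = 0.274) and Smad7 at -0.25 (-0.48 to -0.01, adjusted p = 0.339). All 3 had their lowest naive value on Batf-/- replicate 1. Without that array the differences were -0.17, -0.18 and -0.16. Without Batf-/- replicate 2, in contrast, Tgfbr2 (-0.44, adjusted p = 0.0367) and Smad7 (-0.37, adjusted p = 0.0422) passed, where 3.42% of all genes did. Tgfb3 differed by 0.04 (95% interval -0.47 to 0.55, adjusted p = 0.957), and its sign turned without wild-type replicate 2 (-0.39). Smad3 differed by -0.15, and by 0.08 without Batf-/- replicate 1. The groups did not overlap for 4 of 9 members, Tgfbr1, Tgfbr3, Smad2 and Skil, against 24.5% of all genes.

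The differences between the 2 stimulation responses were tested as an interaction, which uses the same arrays as the comparisons above. Of the 9 members 0 passed, where 0.649% of all genes did (0.165% higher, 0.484% lower), and 2 of 9 had an unadjusted p below 0.05, as had 11.9% of all genes. The response of Tgfb3 was larger in Batf-/- cells by 1.01 ± 0.30 (95% interval 0.36 to 1.65, adjusted p = 0.176). It ranged from 0.57 to 1.44 over 20 alternatives and passed in 1 of them, without naive wild-type replicate 2 (1.44, adjusted p = 0.0463). The fall of Skil was smaller in Batf-/- cells by 0.44 ± 0.17 (adjusted p = 0.297), or by 0.27 without naive Batf-/- replicate 1. In the fit of all probe sets 0 of 20 passed the interaction, against 0.306%. A higher Tgfb3 level without Batf was thus measured at day 3, and a difference between the responses was not called.

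Tgfb3 and Batf lie on chromosome 12, with the 3 protein-coding genes Flvcr2, Erg28 and Ttll5 between them in RefSeq order. Batf-/- arrays therefore also carry the stretch of chromosome linked to the altered Batf allele, and its part in the Tgfb3 difference was not tested. Among the 10 measured protein-coding genes on each side of Batf, Tgfb3 was the 1 that passed at day 3, and 0 of the 20 passed in naive cells (limma, with an unadjusted p below 0.05 for 3 of 20 in each state, against 12.6% of all genes at day 3 and 13.6% in naive cells). The median difference of the 20 was 0.05 at day 3 and 0.01 in naive cells. Between Batf and Tgfb3, Flvcr2 differed by 0.17 (adjusted p = 0.464), Erg28 by 0.16 (adjusted p = 0.212) and Ttll5 by 0.03 (adjusted p = 0.912), and Ift43, beyond Tgfb3, by -0.02 (adjusted p = 0.977). Jdp2, the AP-1 family gene next to Batf, was the other neighbour with a difference above 0.5 in size. It was lower by -0.51 at day 3 (adjusted p = 0.342) and higher by 0.79 in naive cells (adjusted p = 0.219), and passed in neither.

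**Figure D4:**
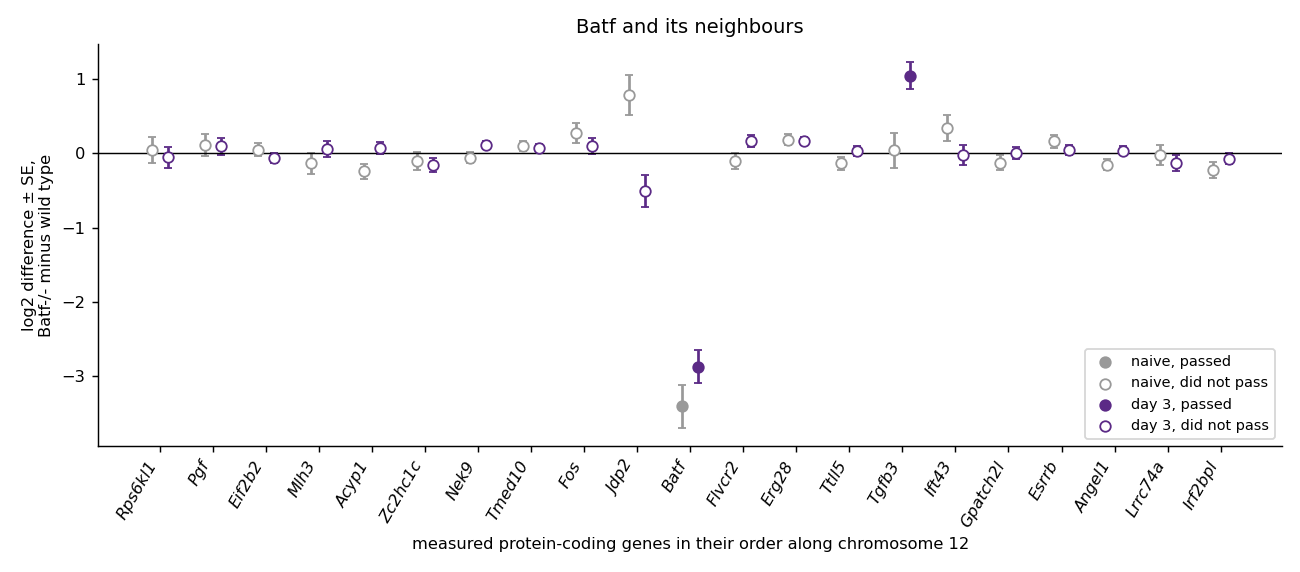
Log2 difference with standard error, Batf-/- minus wild type (vertical axis), for Batf and the 10 measured protein-coding genes on each side, in their order along chromosome 12 (horizontal axis), in naive cells (grey) and at day 3 (purple). Filled points passed the test, which are Batf in both states and Tgfb3 at day 3.

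The rest of the pathway was read through 4 lists of genes with known roles. Their counts after stimulation stand against 45.4% of all genes that passed in wild-type cells (22.4% higher, 23.0% lower) and 47.0% in Batf-/- cells (23.8% higher, 23.2% lower). Counts without naive Batf-/- replicate 1 were added after the data were seen. In the fit without that array, 49% of all genes passed after stimulation in wild-type and 46.8% in Batf-/- cells. Of 13 measured genes that store or activate latent TGF-beta, 2 rose and 2 fell after stimulation in wild-type cells, and 3 rose and 2 fell in Batf-/- cells. Ltbp3, a latent TGF-beta binding protein, rose by 1.37 and 0.80. Thbs1, thrombospondin 1, which activates the latent form and is abundant in platelets, went from 5.75 to 3.92 in wild-type and from 6.10 to 3.67 in Batf-/- cells, while the mean of the platelet markers fell too. Both day 3 means of Thbs1 are dim, so its falls of 1.83 and 2.44 are differences in measured intensity against a dim group. The other genes called in wild-type cells, Tgfb2 (0.25) and Ltbp2 (-0.49), were dim in all 4 groups. Those called in Batf-/- cells were Tgfb2 (0.22), Itgav (0.22) and Nrros (-0.31), and Itgav did not pass without naive replicate 1 (0.14, adjusted p = 0.123). Wild-type and Batf-/- medians over these 13 genes were 0.0009 and 0.10. Of 41 other receptors, Smads and modifiers, 6 rose, 19 fell and 16 did not pass in wild-type cells, and 8 rose, 16 fell and 17 did not pass in Batf-/- cells, with medians of -0.11 and -0.10. Without naive Batf-/- replicate 1 the counts were 7 and 19 in wild-type and 10 and 17 in Batf-/- cells. The corepressor Ski, the relative of Skil, fell by 1.11 and 1.12. Smad4, the shared partner of Smad2 and Smad3, fell by 0.62 in both genotypes (-0.625 and -0.621). Crebbp, a coactivator that Smads bind, fell by 1.39 and 1.01. Rnf111, the ubiquitin ligase Arkadia that degrades Smad7 and Skil, fell by 0.68 and 0.62.

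Against this direction, Acvrl1 (ALK1), a type I receptor of the family that signals through the Smads of the BMP branch, had the largest change of the list. It stood at 5.36 and 5.21 in naive wild-type and 5.46, 5.73 and 5.66 in naive Batf-/- cells. Day 3 values were 9.23, 9.20, 9.54 and 8.80 in wild-type and 9.26, 9.07, 9.36 and 9.39 in Batf-/- cells. It was high on every day 3 array of either genotype and low on every naive array. The rise was 3.90 ± 0.16 (14.98-fold, adjusted p = 8.2e-10) and 3.65 ± 0.14 (12.6-fold, adjusted p = 3.8e-10). The BMP receptor Bmpr1a rose too, by 1.42 and 1.34. Between genotypes 0 of these 13 and 41 genes passed in either state (limma). An unadjusted p below 0.05 was found for 3 and 6 of them at day 3 and for 2 and 7 in naive cells, against 12.6% and 13.6% of all genes. The differences with the smallest adjusted p were those of Smad9 at day 3 (0.37, adjusted p = 0.0721) and of Crebbp in naive cells (-0.35, adjusted p = 0.0843). Nrros, which holds latent TGF-beta on cells, differed by 0.26 at day 3 and 0.34 in naive cells and did not pass. Without naive Batf-/- replicate 1, Smad9 (0.37, adjusted p = 0.0436) and Smurf1 (0.23, adjusted p = 0.0342) passed at day 3 and Bmpr2 (-0.54, adjusted p = 0.0232) in naive cells. In that fit 3.11% of all genes passed at day 3 and 1.71% in naive cells. The day 3 differences do not use that array and are the same in both fits.

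**Figure D5:**
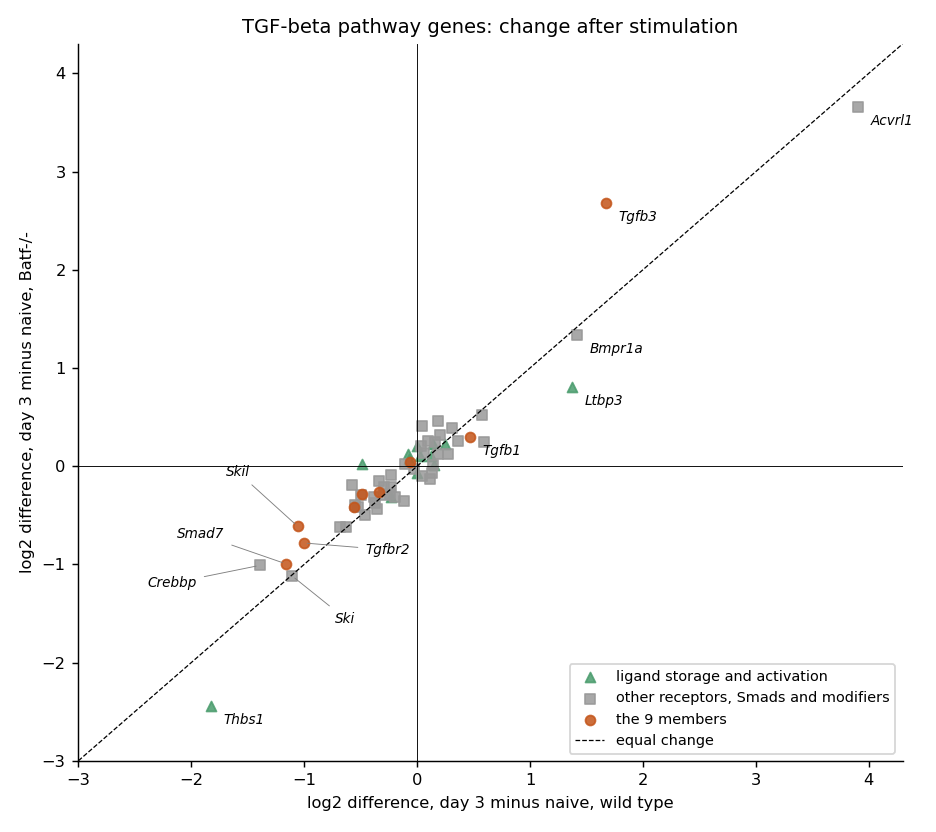
Log2 difference, day 3 minus naive, in wild-type (horizontal axis) and Batf-/- cells (vertical axis) for the 9 members and the measured genes of the lists for ligand storage and for other receptors, Smads and modifiers, 1 point per gene, with a dashed line of equal change. Acvrl1 lies at 3.90 and 3.65, and Tgfb3 lies above the line at 1.67 and 2.68.

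Genes that TGF-beta is known to raise and to lower formed the other 2 lists. Of 8 measured genes that it raises, 2 rose and 3 fell after stimulation in wild-type cells, and 3 rose and 3 fell in Batf-/- cells. Itgae fell by 3.70 and 4.02, Pmepa1, a membrane protein that limits Smad signalling, by 0.67 and 0.55, and Ldlrad4, its relative, by 0.96 and 0.68. The cell cycle inhibitors Cdkn1a (4.61 and 4.22) and Cdkn2b (0.86 and 1.11) rose, as did Foxp3 in Batf-/- cells (0.58), where both means were dim. Without naive Batf-/- replicate 1, the counts were 3 and 3 in wild-type and 4 and 3 in Batf-/- cells, and Id1 in Batf-/- cells turned from -0.20 (adjusted p = 0.61) to 0.33 (adjusted p = 0.0204). In that fit 49% and 46.8% of all genes passed after stimulation. Between genotypes 1 of the 8 passed at day 3, where 1.37% of all genes did. It was Itgae, which was lower in Batf-/- cells by -1.44 ± 0.20 (adjusted p = 0.00267). Pmepa1 (-0.23, adjusted p = 0.277) did not pass. In naive cells 0 of 8 passed, where 1.08% of all genes did, and 3 of 8 had an unadjusted p below 0.05, against 13.6%. Itgae was 10.55 and 10.43 in naive wild-type and 8.84, 9.79 and 9.48 in naive Batf-/- cells, with no overlap. The naive difference was -1.12 (adjusted p = 0.0577), and -0.85 without Batf-/- replicate 1, the lowest array. The second Itgae probe set, 1449216_at, passed in naive cells, with -1.27 (adjusted p = 0.0115), or -1.03 without that array (adjusted p = 0.0093). At day 3 both Itgae probe sets were lower without Batf.

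Of 11 genes that TGF-beta lowers in CD8+ T cells, 3 rose and 5 fell after stimulation in wild-type cells, and 4 rose and 5 fell in Batf-/- cells. Granzyme B, Gzmb, rose by 6.14 and Gzma fell by 3.40 in wild-type cells, where S1pr1, the receptor that lets T cells leave lymph nodes, fell by 1.66. At day 3, 3 of 11 were higher in Batf-/- cells and 1 was lower, where 1.37% of all genes passed. Those higher were Fasl (0.76), Prf1 (0.61) and Ifng (0.33, adjusted p = 0.0498), and the lower was Tbx21 (-0.89). The second probe set of Prf1 did not pass (-0.08, adjusted p = 0.832). Eomes (0.83, adjusted p = 0.169) and S1pr1 (-0.40, adjusted p = 0.102) did not pass at day 3, though their groups did not overlap. Both passed in the fit without naive Batf-/- replicate 1, where their differences are the same (adjusted p = 0.000702 and 0.0207). In that fit 3.11% of all genes passed at day 3. In naive cells 1 of 11 was higher without Batf, Ifng (0.75), and 1 lower, Myc (-0.45), where 1.08% of all genes passed. These calls use the spread of all 13 arrays. In a fit of the naive arrays alone, 1 of 18193 genes passed and 0 were higher. Without naive Batf-/- replicate 1, the naive count was 4 higher and 1 lower, with Gzma, Gzmb and Fasl added, where 1.71% of all genes passed. The mean of 5 NK cell markers was also higher on naive Batf-/- arrays, at 7.36 to 8.22, than on naive wild-type arrays, at 6.51 to 6.70. This held without replicate 1 (7.36 and 7.63), and its part in these differences was not tested.

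The genes whose levels over the 13 arrays were most like those of each member were taken from 11785 genes above the dim level, by Pearson correlation. The arrays share the division into naive and day 3, which by itself gives high values, so these are a description without a test. For Tgfb3 they were Lta, which codes for lymphotoxin alpha (r = 0.98), and 1600014C23Rik (0.98), and for Tgfb1 Mettl6 (0.98) and Gabarapl1 (0.98). For Tgfbr2 they were Arhgap45 (0.996) and Dusp2 (0.994), for Tgfbr1 the long noncoding RNA Tug1 (0.99) and Ccnq (0.99), and for Tgfbr3 Scap (0.97) and Hipk2 (0.97). For Smad7 they were Elf2 and Chd6, for Skil Rasal3 and the T cell surface protein Cd6, and for Smad2 Gnptg and Arhgef1 (0.99 for each). Smad3, which did not follow the division, had lower values, 0.95 with Mcoln2 and 0.94 with Trp53i13.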

How the data were processed

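RNA of 13 samples was labelled with biotin and hybridised to 1 array each. The deposited values are intensities per probe set, made by the authors with RMA according to the submitters' processing notes, whose version and settings are not given in the sources used here. Medians of 31.5 to 32.5 and a highest value of 27465 show that no logarithm had been taken, so log2 was taken here, with no further normalisation. Of 45101 probe sets, 64 controls were left out, and 34945 had 1 gene, 932 several and 9160 none in the platform annotation. RefSeq held 34741 of the 34945 by identifier, and 0 symbols differed. Each of 18193 genes was represented by its brightest probe set, a choice for 9010 of them. Models of 4 group means over all 13 arrays were fitted with limma 3.58.1 in R 4.3.3, with eBayes (9 residual, 3.702 prior degrees of freedom) and two-sided tests at an adjusted p of 0.05. A second fit held all 45037 probe sets. The fit was tested on simulated data. Members and gene lists were chosen with earlier results of these data known. All members and Batf are named, and other genes come from a rule that takes the 10 measured neighbours of Batf on each side and, from each list and comparison, up to 6 called and 2 uncalled genes with the largest differences. The text names examples from these. Smurf1 and genes whose call changes without an array were named after their values were seen. Replicate numbers were not used as pairs in the main fit. Deviations of same-numbered arrays from their group means correlated at -0.26 to 0.04, which cannot exclude pairing with so few arrays per group. Alternatives were other normalisations, filters, probe set rules, variance models and leaving out each array.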

Additional observations from a re-analysis of the deposited data

Results flagged for a closer look

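Among 122 groups of 4 arrays, 9 had an array far from the other 3 by Dixon's ratio, where chance gives about 5% of groups. Of the members, Tgfbr2 was 10.87 on wild-type day 3 replicate 4, with the others at 10.78, and Smad3 was 9.17 on Batf-/- day 3 replicate 1, with the others at 9.04 to 9.06. The second Skil probe set, 1422054_a_at, was 4.41 on wild-type day 3 replicate 3, with the others at 4.69 to 4.71. Of the pathway lists, Itgae was 5.90 on Batf-/- day 3 replicate 1, with the others at 5.12 to 5.24, and Myc was 9.53 on the same array, with the others at 9.76 to 9.79. Ltbp2 was 3.23 on Batf-/- day 3 replicate 2, with the others at 2.85 to 2.91. On wild-type day 3 replicate 4, Ldlrad4 was 4.09, with the others at 4.63 to 4.70, and Gzma was 7.76, with the others at 7.21 to 7.29. Gzmb was 13.94 on wild-type day 3 replicate 3, with the others tied at 13.9002. Such a tie sets the ratio to 1 however small the gap. The response of Myc to stimulation differed between genotypes by 0.70 in the interaction (adjusted p = 0.0123), and it was the gene of the pathway lists that passed there.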

How the results depend on the processing

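Of 936 values of single members under alternatives, 906 kept direction and side of the threshold. With each array left out in turn, the number of members that passed was 1 throughout for the genotypes at day 3, 0 to 2 in naive cells, 8 throughout for stimulation in wild-type and 7 to 9 in Batf-/- cells, and 0 to 1 for the interaction. Where at least 2 arrays per group remained, 42.8% to 49% of all genes passed for stimulation in wild-type cells. In Batf-/- cells the share was 43.2% to 46.8%. Between genotypes it was 0.671% to 3.11% at day 3 and 0.621% to 3.42% in naive cells. The interaction had 0.319% to 1.54%. With the mean of all probe sets, 5 members passed for stimulation in Batf-/- cells, where 46.3% of all genes did. In wild-type cells Tgfb1 and Smad2 no longer passed (limma, adjusted p = 0.151 and 0.954), where 44.7% of all genes did. That mean also turned the sign of Tgfb1 (0.0023) at day 3, Tgfbr3 in naive cells (0.176) and in the interaction (-0.052), Smad2 after stimulation (0.0068 and 0.0678) and Smad3 in wild-type cells (0.11). Array weights turned Smad3 in naive cells (0.0579), in the Batf-/- response (-0.177) and in the interaction (-0.111). Smad3 turned likewise without naive Batf-/- replicate 1, with ranges over arrays left out of -0.274 to 0.0802, -0.183 to 0.171 and -0.123 to 0.231. At day 3, Tgfbr1 turned with median centring (-0.0073), array weights (-0.0041) and without wild-type replicate 1 or 3 or Batf-/- replicate 1, with a range of -0.0297 to 0.0337 over arrays left out. Smad2 turned there with quantile normalisation (0.0021) and without replicate 3 of either genotype, with a range of -0.0269 to 0.0117. Tgfb3 in naive cells turned without wild-type replicate 2 or Batf-/- replicate 3, with a range of -0.389 to 0.475, and with the replicate block (-0.0523), which changed no call of a member. Beyond arrays left out and probe set rules, the cause was not tested. Genes that passed numbered 122 to 1306 at day 3 (250 as reported), 1 to 622 in naive cells (196) and 50 to 542 in the interaction (118), and with the replicate block 125, 87 and 50. The lowest naive count, 1, came from a fit of the naive arrays alone. The block moved the higher share of calls in naive cells from 75.5% to 90.8%. No depth is known for arrays, and their number limits the precision, above all in naive cells.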
